A study of Caenorhabditis elegans with 33 samples.

Results

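The genes abu-1 (AC3.3), pqn-2 (AC3.4), abu-15 (C03A7.4), abu-6 (C03A7.7), abu-7 (C03A7.8), abu-8 (C03A7.14), abu-10 (F35A5.3) and abu-11 (T01D1.6) of Caenorhabditis elegans were followed through L4 larvae of 5 genotypes. These 8 genes were taken by sequence name from a table of 20517 genes. They were selected on their FPKM values in these same libraries, so their levels and changes are given here as a description, with no test. A test was made only for other genes. No threshold was part of the choice.

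The series asks about the part of ALG-5, an Argonaute protein that binds small RNAs, in germline timing, and includes mutants of the related miRNA Argonautes ALG-1 and ALG-2. Long RNA of whole late L4 animals was measured in alg-1(gk214), alg-2(ok304), alg-5(tm1163), alg-5(ram2) and wild type (N2) larvae, with 3 libraries each. The larvae were synchronized at L1 and collected 49 h later, except alg-1(gk214) larvae, which were collected at 53 h to match the stage. Each mutant carries its allele in every cell, and all groups were fed the same bacteria at the same temperature. Small RNA was measured in 18 further libraries of L4 larvae and adults.

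The abu genes take their name from activation when the unfolded protein response is blocked, and the pqn genes from a prion-like domain rich in glutamine and asparagine. Many of their products are small secreted proteins of low-complexity sequence that build the cuticle lining the pharynx, the feeding organ. This lining is shed and made anew at every molt, and transcripts of such genes are known to rise and fall with the molting cycle. Whole-animal RNA does not show which cells hold these transcripts, so the link to the pharynx is background here. Fewer cells of a type and less RNA per cell cannot be told apart in these libraries either.

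The values are FPKM, fragments scaled to transcript length and library size as the authors' software estimated them, and may be set side by side between genes because they are per length. Read depth is not known from them. FPKM sums lay between 1182262 and 1299326 per library, and between 4486 and 6385 genes were listed at 0. The mutated gene itself was lower in 3 of the 4 mutants. Levels of alg-1 were 13 ± 2.88 FPKM in alg-1(gk214) larvae and 30.3 ± 2.05 in wild type (SD, n = 3 each), with a limma adjusted p of 0.000375. Those of alg-2 were 2.06 ± 0.114 FPKM in alg-2(ok304) larvae and 15.3 ± 1.96 in wild type (adjusted p = 7.16e-06). The level of alg-5 was 0.72 ± 0.241 FPKM in alg-5(ram2) larvae and 9.35 ± 1.17 in wild type (adjusted p = 0.000702). In alg-5(tm1163) larvae alg-5 stood at 10.2 ± 1.37 FPKM (adjusted p = 0.912), so its level does not check that label.

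All 8 genes had higher means in alg-1(gk214) and alg-2(ok304) larvae than in wild type, and their summed level in both alg-5 mutants overlapped with that of wild type. The summed level of the 8 genes was 124, 118 and 87.4 FPKM in alg-1(gk214) libraries and 150.4, 119 and 135 in alg-2(ok304) libraries. It was 22.8, 5.9 and 14.4 FPKM in alg-5(tm1163), 8.39, 17.0 and 17.0 in alg-5(ram2), and 8.14, 6.45 and 27.1 in wild type. Every alg-1(gk214) and alg-2(ok304) library lay above every library of the other 3 genotypes, and those 3 genotypes overlapped with each other. The means of these sums were 109.7 ± 19.5 FPKM in alg-1(gk214), 135 ± 15.7 in alg-2(ok304), 14.4 ± 8.46 in alg-5(tm1163), 14.1 ± 4.96 in alg-5(ram2) and 13.9 ± 11.5 in wild type (SD, n = 3 each). The wild type mean rests on replicate 3: without it, an alternative added after the values were seen, the mean of the other two libraries was 7.29 FPKM, below the means of both alg-5 mutants.

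The 53 h collection of alg-1(gk214) larvae and their genotype cannot be told apart. Whether replicate libraries came from separate cultures is not stated, so the spread given here is that between these libraries and may be technical. The genes are paralogs, and how reads that fit several of them were shared is not given in the sources used here. A single gene's level is therefore less certain than the sum, above all for the neighbours abu-6 and abu-7.

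**Figure D1:**
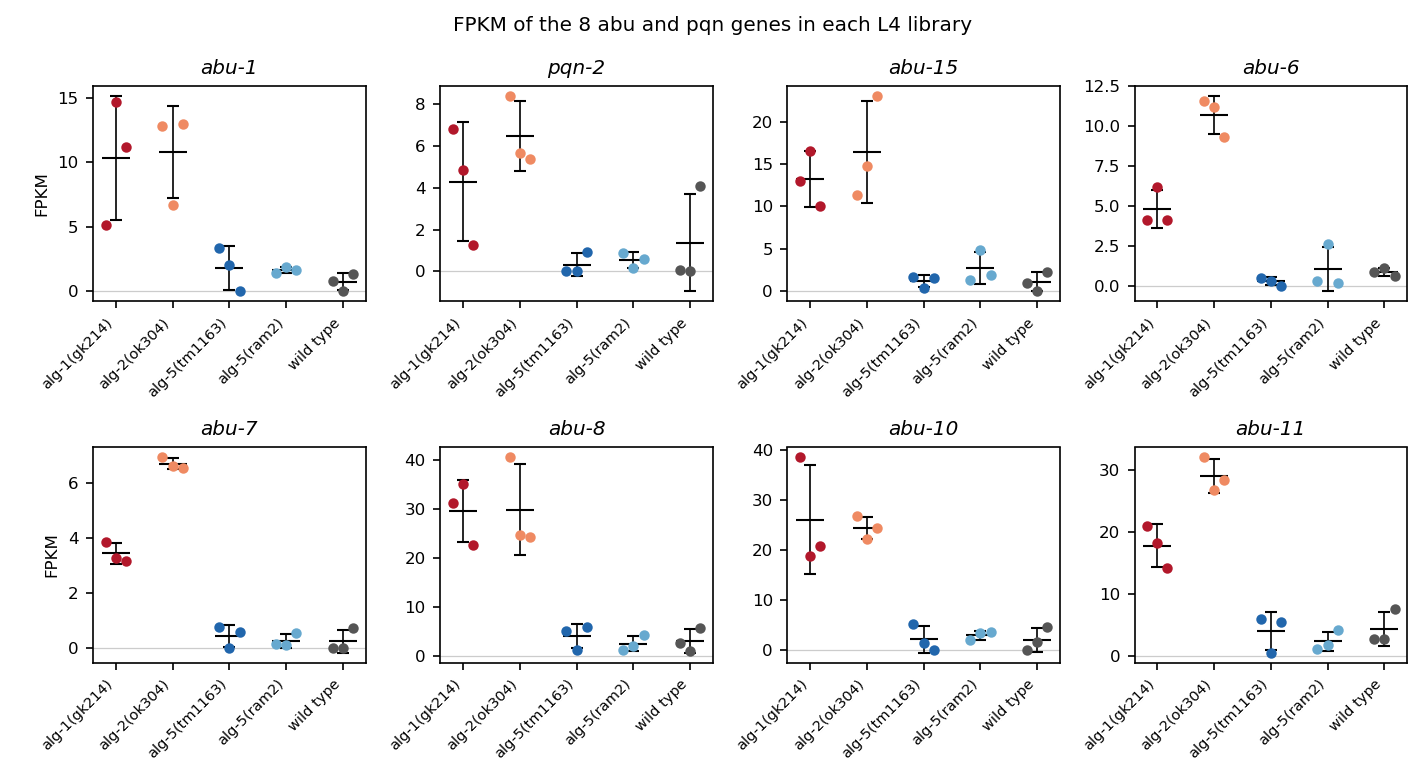
FPKM of each of the 8 genes (1 panel per gene, linear axes of different range) in each of the 15 L4 libraries, by genotype. Points are libraries, and black marks are the mean ± SD of 3. The alg-1(gk214) and alg-2(ok304) points lie above all wild type points in every panel except that of pqn-2, where the lowest alg-1(gk214) library (1.24) is under the highest wild type library (4.07).

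The gene abu-8 had the highest mean of the 8 in both mutants with raised levels. It read 31.2, 35.1 and 22.7 FPKM in alg-1(gk214) libraries and 40.6, 24.8 and 24.3 in alg-2(ok304), against 2.59, 0.973 and 5.76 in wild type. In alg-5(tm1163) libraries it read 5.19, 1.27 and 5.86 FPKM, and in alg-5(ram2) 1.19, 2.15 and 4.34. The lowest library of alg-1(gk214) or alg-2(ok304) thus lay well above the highest of the other 3 genotypes, and those 3 overlapped. On the log2(FPKM + 1) scale the change against wild type was 3.06 in alg-1(gk214) and 3.05 in alg-2(ok304), each with an SE of 0.497. It was 0.34 in alg-5(tm1163) and -0.12 in alg-5(ram2), both within 1 SE of 0.

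For abu-10, the member with the largest fitted change in either mutant, alg-1(gk214) libraries held 38.5, 18.9 and 20.8 FPKM and alg-2(ok304) libraries 26.7, 22.3 and 24.4. Those of alg-5(tm1163) held 5.21, 1.42 and 0 FPKM, those of alg-5(ram2) 1.97, 3.4 and 3.6, and those of wild type 0, 1.58 and 4.71. The first alg-1(gk214) library stood above its other two, and the groups of high and low level were again apart. Changes against wild type were 3.39 in alg-1(gk214) and 3.37 in alg-2(ok304), and 0.01 in alg-5(tm1163) and 0.68 in alg-5(ram2), with an SE of 0.63 for each. The means of alg-1(gk214) and alg-2(ok304), 26.1 and 24.4 FPKM, did not differ beyond their spread.

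Among the 8, abu-11 had the highest level in wild type. It was read at 21.1, 18.3 and 14.2 FPKM in alg-1(gk214) libraries, at 32.1, 26.8 and 28.4 in alg-2(ok304), and at 2.86, 2.78 and 7.65 in wild type. The alg-5(tm1163) libraries held 6.12, 0.598 and 5.56 FPKM and the alg-5(ram2) libraries 1.23, 1.84 and 4.22. Here the alg-1(gk214) libraries lay between the others: all 3 were below all 3 of alg-2(ok304) and above all of the remaining genotypes. The change against wild type was 1.89 in alg-1(gk214), 2.58 in alg-2(ok304), -0.25 in alg-5(tm1163) and -0.65 in alg-5(ram2) on the log2(FPKM + 1) scale (SE 0.515 each).

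The next 3 genes, abu-15, abu-6 and abu-7, follow each other on the chromosome in the RefSeq annotation of WBcel235. Levels of abu-15 were 13, 16.6 and 10 FPKM in alg-1(gk214) libraries and 11.3, 14.8 and 23.1 in alg-2(ok304), against 0.962, 0 and 2.28 in wild type. They were 1.68, 0.284 and 1.48 FPKM in alg-5(tm1163) and 1.27, 4.86 and 1.9 in alg-5(ram2). The second alg-5(ram2) library was the highest of the low groups and still below every alg-1(gk214) and alg-2(ok304) library. The changes of abu-15 against wild type were 2.91 in alg-1(gk214) and 3.17 in alg-2(ok304), and 0.14 in alg-5(tm1163) and 0.86 in alg-5(ram2) (SE 0.482 each).

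Its neighbour abu-6 had a lower mean than abu-15 in every genotype, although not in every library. The values were 4.11, 6.2 and 4.13 FPKM in alg-1(gk214), 11.6, 11.2 and 9.35 in alg-2(ok304) and 0.829, 1.08 and 0.576 in wild type. In alg-5(tm1163) they were 0.495, 0.299 and 0 FPKM, below all wild type libraries, and in alg-5(ram2) 0.289, 2.62 and 0.159. All alg-2(ok304) libraries exceeded all alg-1(gk214) libraries, which exceeded all others. The fitted change was 1.66 in alg-1(gk214), 2.68 in alg-2(ok304), -0.54 in alg-5(tm1163) and -0.05 in alg-5(ram2) (SE 0.399 each).

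With abu-7, the third of the row, alg-1(gk214) libraries were at 3.85, 3.27 and 3.17 FPKM and alg-2(ok304) libraries at 6.92, 6.6 and 6.54. Levels were 0.759, 0 and 0.576 FPKM in alg-5(tm1163), 0.143, 0.093 and 0.552 in alg-5(ram2) and 0, 0 and 0.73 in wild type. It had the smallest spread among replicates of the high groups and the same order of genotypes at the top as abu-6. The change of abu-7 was 1.88 in alg-1(gk214) and 2.68 in alg-2(ok304), and 0.23 in alg-5(tm1163) and 0.06 in alg-5(ram2) (SE 0.333 each). Only through alg-1(gk214) and alg-2(ok304) did abu-7 reach the mean of 1 FPKM required for the fit. The other 7 reached it in at least 1 further genotype, although abu-1 and abu-6 were under it in wild type.

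The pair abu-1 and pqn-2 are next to each other in WBcel235. Libraries of alg-1(gk214) held 5.18, 14.7 and 11.2 FPKM of abu-1, those of alg-2(ok304) 12.8, 6.72 and 13, and those of wild type 0.834, 0.0335 and 1.35. Values were 3.36, 2.03 and 0 FPKM in alg-5(tm1163) and 1.42, 1.9 and 1.62 in alg-5(ram2). The alg-5(ram2) libraries lay above the 3 wild type libraries by a small margin, and 1 alg-5(tm1163) library was listed at 0. Changes of abu-1 against wild type were 2.68 in alg-1(gk214), 2.80 in alg-2(ok304), 0.52 in alg-5(tm1163) and 0.68 in alg-5(ram2) (SE 0.525 each).

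The least clear of the 8 was pqn-2. It stood at 6.82, 4.85 and 1.24 FPKM in alg-1(gk214), 8.41, 5.67 and 5.37 in alg-2(ok304) and 0.0643, 0 and 4.07 in wild type. In alg-5(tm1163) it was listed at 0, 0 and 0.945 FPKM and in alg-5(ram2) at 0.879, 0.14 and 0.6. The third wild type library overlapped with the alg-1(gk214) range, whereas the alg-2(ok304) libraries were above all others except 1 of alg-1(gk214). The change of pqn-2 was 1.41 in alg-1(gk214), 2.07 in alg-2(ok304), -0.49 in alg-5(tm1163) and -0.22 in alg-5(ram2) (SE 0.608 each).

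Counted together, 7 of the 8 genes in alg-1(gk214) had all 3 libraries above all 3 of wild type, where 13% of the 15174 genes fitted did so. In alg-2(ok304) all 8 did, again beside 13% of genes. The median change of the 8 was 2.29 in alg-1(gk214) and 2.74 in alg-2(ok304), and that of all genes fitted was 0.01 and 0.00 in the same order. These comparisons share the wild type libraries and were known when the genes were chosen, so nothing is read from the counts. The pseudocount of 1 makes the fitted change smaller than the ratio of levels for genes this low in wild type.

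In the alg-5 mutants most of the 8 overlapped with wild type. Only abu-6 lay below wild type in every alg-5(tm1163) library, where 6.97% of genes did, and none lay above, where 5.65% did. Only abu-1 lay above wild type in every alg-5(ram2) library, beside 5.75% of genes, and none below, beside 6.59%. The median change of the 8 genes was 0.07 in alg-5(tm1163) and 0.00 in alg-5(ram2), and changes ran in both directions.

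Wild type libraries were not alike for these genes. Replicate 3 held the highest wild type value of 7 of the 8 genes, abu-6 being the exception. Without that library, also an alternative added after the values were seen, all 8 genes were apart from wild type in alg-1(gk214), beside 18.2% of genes. In alg-2(ok304) all 8 were apart as before, beside 18.7%. In alg-5(ram2), 5 of the 8 were then above wild type, beside 12.9% of genes, so that 1 library decides how many of the 8 stand apart there. The median changes without it were 2.61 in alg-1(gk214), 3.01 in alg-2(ok304), 0.52 in alg-5(tm1163) and 0.44 in alg-5(ram2).

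**Figure D2:**
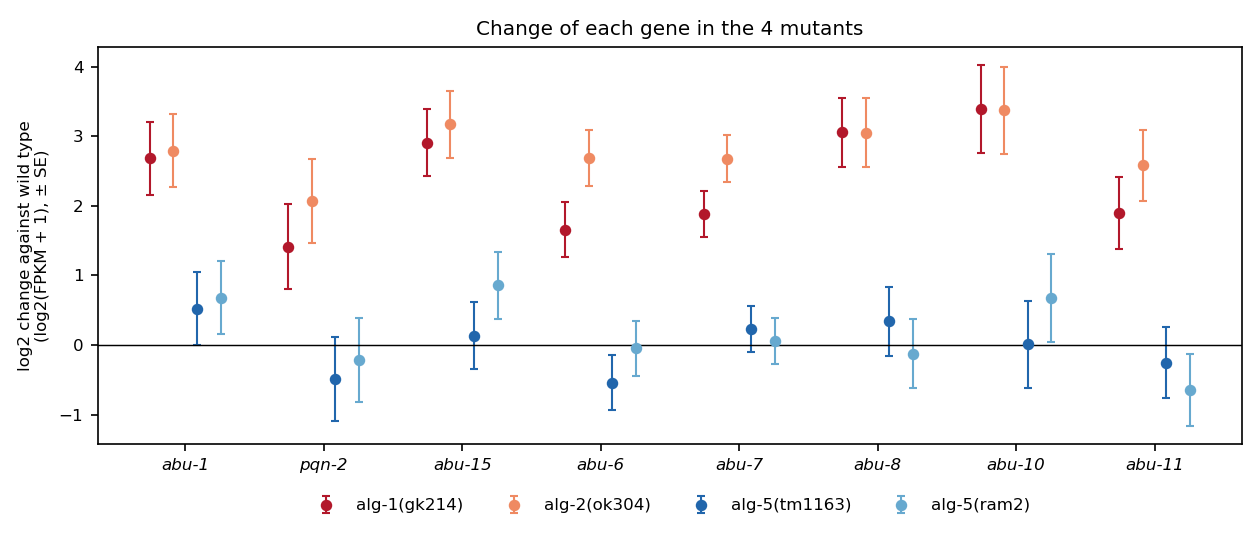
Change of each of the 8 genes against wild type on the log2(FPKM + 1) scale, as fitted by limma, in the 4 mutants; bars are ± SE and the line marks 0. Values in alg-1(gk214) and alg-2(ok304) run between 1.41 and 3.39, and those of the alg-5 mutants between -0.65 and 0.86.

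Between alg-1(gk214) and alg-2(ok304) larvae, 3 of the 8 genes had libraries that did not overlap, all lower in alg-1(gk214), where 10.3% of all genes were lower in this way and 9.87% higher. As the genes were chosen on these values, nothing is read from that count. The 3 libraries of alg-1(gk214) were below those of alg-2(ok304) for abu-6 (-1.03 on the log2 scale, SE 0.399), abu-7 (-0.80, SE 0.333) and abu-11 (-0.69, SE 0.515). For pqn-2 and abu-15 the differences were -0.66 and -0.26 with overlapping libraries, and for abu-1, abu-8 and abu-10 they were -0.11, 0.01 and 0.02. Of the 3 genes with the highest levels, abu-8 and abu-10 thus differed by much less than an SE of 0.497 and 0.63, while the libraries of abu-11 were apart. Differences between alg-5(ram2) and alg-5(tm1163) ran from -0.46 for abu-8 to 0.73 for abu-15, and the libraries overlapped for each of the 8, where 6.47% of all genes were apart with alg-5(ram2) higher and 6.23% with it lower.

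By mean level per length the order was abu-8, abu-10, abu-11, abu-15, abu-1, abu-6, pqn-2 and abu-7 in alg-1(gk214). It was abu-8, abu-11, abu-10, abu-15, abu-1, abu-6, abu-7 and pqn-2 in alg-2(ok304). The first 3 were the same genes in wild type, where abu-11 led with 4.43 ± 2.79 FPKM, before abu-8 with 3.11 ± 2.43 and abu-10 with 2.1 ± 2.4, and these did not differ beyond their spread. Genes were ranked among all 20517 within each library, and the percentiles were averaged over the 3 libraries of a genotype. By this measure abu-8 was at percentile 77.3 in alg-1(gk214), 77.5 in alg-2(ok304) and 42.6 in wild type. At the other end abu-7 was at percentile 44.4 in alg-1(gk214), 53.0 in alg-2(ok304) and 20.6 in wild type. The percentiles of the other 6 genes lay between these in alg-1(gk214), and all 8 ranked higher in alg-1(gk214) and alg-2(ok304) than in wild type.

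Zeros were listed for 6 of the 24 values of the 8 genes in alg-5(tm1163) and for 5 of 24 in wild type. None of the 24 values was 0 in alg-1(gk214), alg-2(ok304) or alg-5(ram2). No fold is given against a library at 0.

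The levels of the 8 genes were correlated across libraries. Over the 15 libraries the 28 pairs of genes had Pearson correlations of log2(FPKM + 1) between 0.682 and 0.962, with a median of 0.868. Differences between genotypes enter these correlations. After each genotype's mean was taken off, the correlations ran from -0.355 to 0.941 with a median of 0.294, and 22 of 28 were positive. These points share libraries, and paralogs may share reads.

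Outside the 8, the pattern over the 15 libraries most like their mean was found in 6 of 11926 genes compared, all those that averaged 5 FPKM or more in some genotype. They were K07E1.1 (r = 0.987), the tyrosinase family gene tyr-2 (0.979), the hedgehog-related genes grl-4 (0.979) and grd-13 (0.979), and the cuticle collagen genes col-39 (0.977) and col-154 (0.977). With genotype means taken off, r was still 0.836 for K07E1.1, 0.761 for tyr-2, 0.85 for grl-4, 0.854 for grd-13, 0.813 for col-39 and 0.785 for col-154. In every genotype their mean levels were above that of each of the 8. The level of col-39 was 905 ± 91.2 FPKM in alg-1(gk214), 1011 ± 125 in alg-2(ok304), 225 ± 86.6 in alg-5(tm1163), 172 ± 19.7 in alg-5(ram2) and 163 ± 40.6 in wild type (SD, n = 3 each). Since they were picked for likeness, these genes carry no test.

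**Figure D3:**
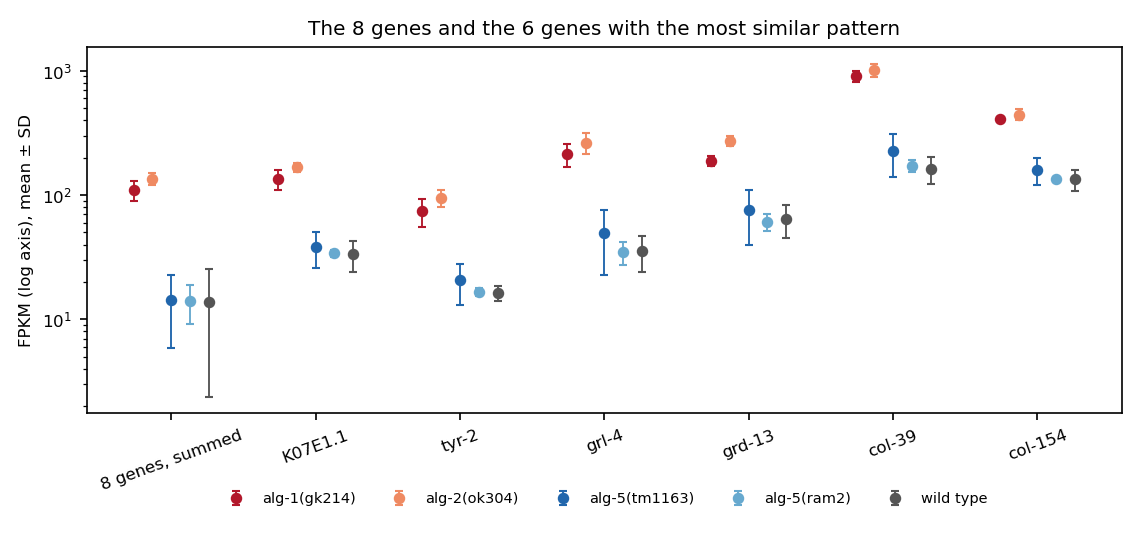
Mean FPKM ± SD (n = 3, log axis) of the summed 8 genes and of the 6 genes whose pattern over the 15 libraries was most like theirs, by genotype. In each column the alg-1(gk214) and alg-2(ok304) means are above the other 3, which lie close together.

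Genes beside the 8 on the chromosome mostly did not share the pattern. The pair abu-1 and pqn-2 lies between AC3.12 and spe-10, a sperm gene. AC3.12 averaged 0.181 ± 0.313 FPKM in alg-1(gk214), 1.37 ± 2.37 in alg-2(ok304) and 5.92 ± 5.57 in wild type (SD). In the same groups spe-10 averaged 1.25 ± 0.618, 0.879 ± 0.854 and 1.95 ± 0.699 FPKM. The row of abu-15, abu-6 and abu-7 is flanked by srx-39, listed at 0 in all libraries, and srw-140, at most 0.201 on average. All 4 of these flanking genes were low. Next to abu-8, Y47A7.2 averaged 42.6 ± 5.01 FPKM in alg-1(gk214), 40.5 ± 4.74 in alg-2(ok304) and 27.7 ± 2.74 in wild type. Beside abu-10, F35A5.8 stood at 15.7 ± 4.35 FPKM in alg-1(gk214), 14.9 ± 5.51 in alg-2(ok304) and 13.8 ± 2.85 in wild type. The gene next to abu-11 is chs-2, a chitin synthase of the pharynx, with 3.64 ± 0.694 FPKM in alg-1(gk214), 6.14 ± 2.3 in alg-2(ok304) and 4.82 ± 0.958 in wild type. It was not called in alg-1(gk214) (adjusted p = 0.541) or alg-2(ok304) (adjusted p = 0.677), although abu-11 beside it was high in both.

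The other genes of the same families were tested with limma over all 15174 genes at an adjusted p of 0.05. Of 63 further abu and pqn genes in the table, 50 had the required level. In alg-1(gk214) 10 rose and 3 fell, where 6.39% of all genes were called higher and 8.41% lower, and in alg-2(ok304) 11 rose and 2 fell, beside 4.87% and 7.08%. Their median change was 0.16 in alg-1(gk214) and 0.32 in alg-2(ok304), below the 2.29 and 2.74 of the 8. The 8 were selected on these values, so nothing is read from that difference. At the same time 37 of the 50 were not called in each of these mutants, and abu-2, abu-3, abu-5 and abu-9 were listed at or near 0.

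Among those called, pqn-54 rose by 2.62 in alg-1(gk214) (19.8 ± 1.54 FPKM, against 2.61 ± 1.47 in wild type, adjusted p = 0.0006) and by 2.81 in alg-2(ok304) (22.8 ± 2.31 FPKM, adjusted p = 0.000387). Other rises in alg-1(gk214) were those of pqn-74 (2.09, adjusted p = 0.00368), pqn-37 (1.79, adjusted p = 0.00236) and pqn-31 (1.74, adjusted p = 0.00212). In alg-2(ok304) they included pqn-72 (2.80, adjusted p = 3.93e-05), pqn-74 (2.42, adjusted p = 0.00143) and abu-14 (1.96, adjusted p = 0.000378). The genes that fell were named after their values were seen: abu-13, pqn-11 and pqn-96 in alg-1(gk214), and pqn-89 and pqn-96 in alg-2(ok304). The largest of these falls was that of abu-13, by 1.45 in alg-1(gk214), to 36.4 ± 4.78 FPKM, against 102 ± 26.2 in wild type (adjusted p = 0.00495). The abu genes thus moved in both directions in alg-1(gk214). None of the 50 was called in either alg-5 mutant, where limma called 0.033% of all genes higher in each and 0.0527% lower in alg-5(tm1163) and 0.257% lower in alg-5(ram2). Of the 50, 6 had an unadjusted p under 0.05 in alg-5(tm1163) and 3 in alg-5(ram2).

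Many idp genes, which code for intrinsically disordered proteins of the pharyngeal cuticle, rose in the mutants in which the 8 were high. Of 31 tested, 15 rose and 2 fell in alg-1(gk214) (median change 1.44), and 20 rose and 1 fell in alg-2(ok304) (median 2.03). Over all genes, 6.39% were called higher and 8.41% lower in alg-1(gk214), and 4.87% and 7.08% in alg-2(ok304). Of the 31, 17 had a wild type mean of at least 1 FPKM. Of those 17, 8 rose and 2 fell in alg-1(gk214) (median 1.42), and 10 rose and 1 fell in alg-2(ok304) (median 1.93). Levels of idpc-3 were 36.0 ± 6.54 FPKM in alg-1(gk214) and 54.6 ± 12.5 in alg-2(ok304), against 4.1 ± 1.44 in wild type (log2 changes 2.89 and 3.46, adjusted p = 0.00878 and 0.00299). Similar rises were fitted for idpc-7 (2.72 and 3.04), idpp-10 (2.86 and 3.35), idpb-2 in alg-1(gk214) (2.69) and idpc-6 in alg-2(ok304) (3.55). Wild type means were only 0.193 FPKM for idpp-10, 0.0596 for idpb-2 and 0.267 for idpc-6. Some of the 31, among them idpc-6, idpp-5, idpp-8 and idpp-11, reached the mean of 1 FPKM required for the fit only through alg-1(gk214) and alg-2(ok304). They were high there, so rises of such genes are description. The counts and medians of all 31 include them. The genes that fell, named after their values were seen, were idpp-1 in both mutants, by 1.35 in alg-1(gk214) and 1.71 in alg-2(ok304), and idpp-2 in alg-1(gk214), by 2.24. In neither alg-5 mutant was an idp gene called; 4 had an unadjusted p under 0.05 in alg-5(tm1163) and 1 in alg-5(ram2).

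**Figure D4:**
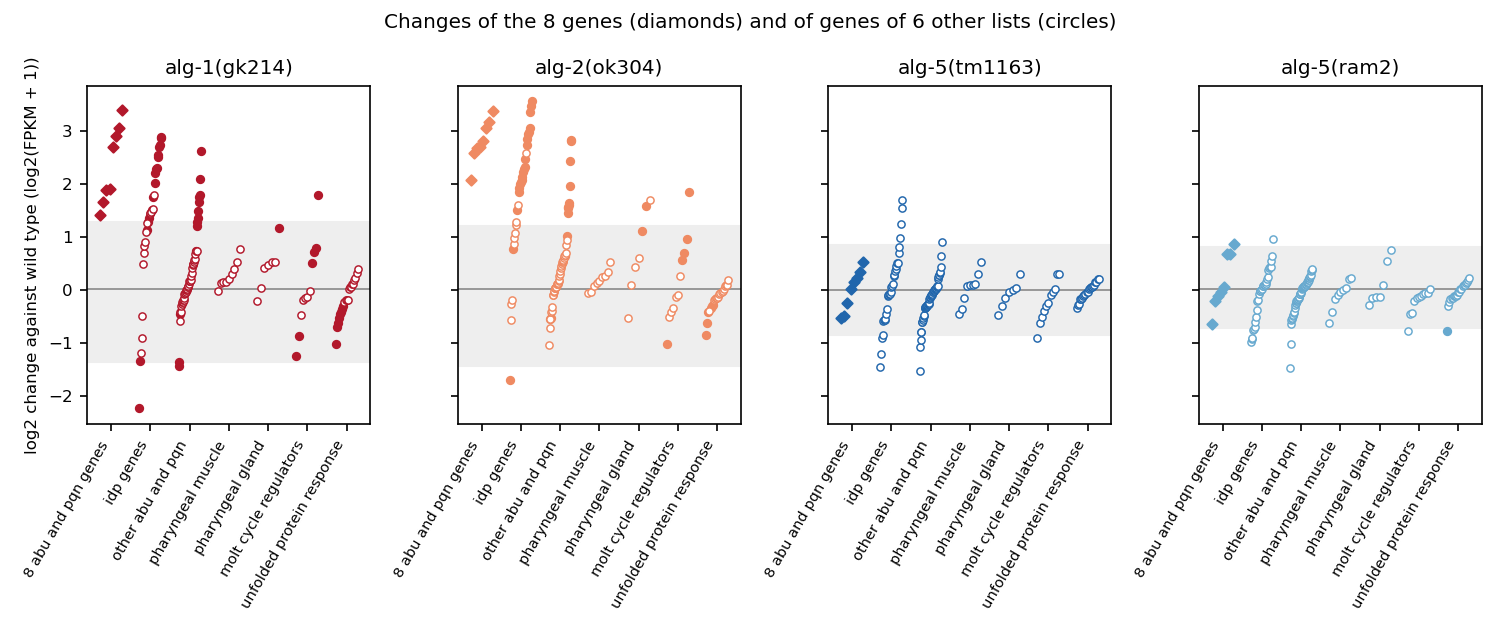
Change against wild type on the log2(FPKM + 1) scale in each mutant for the 8 genes (diamonds, not tested) and for genes of 6 other lists (circles, filled where the limma adjusted p is under 0.05). The grey band spans the 5th to 95th percentile of all 15174 genes and the line is their median. The 8 genes and most idp genes lie above the band in alg-1(gk214) and alg-2(ok304), and pharyngeal muscle genes lie within it.

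Markers of pharyngeal cells were examined beside this because the 8 genes are linked with that organ. Of 9 pharyngeal muscle genes tested, none was called in alg-1(gk214) or alg-2(ok304) by limma, and 0 and 1 had an unadjusted p under 0.05. Over all genes limma called 6.39% higher and 8.41% lower in alg-1(gk214), and 4.87% and 7.08% in alg-2(ok304). The median change of these 9 was 0.21 in alg-1(gk214) and 0.17 in alg-2(ok304), against 2.29 and 2.74 for the 8. Since the 8 were selected on such values, that contrast is description only. The defining genes myo-1, myo-2, tnc-2 and tni-4 summed to 319.7 to 379 FPKM in alg-1(gk214), 344 to 371 in alg-2(ok304), 253 to 374 in alg-5(tm1163), 279.7 to 321 in alg-5(ram2) and 230.3 to 368 in wild type. None of them was at 0, and the ranges of the mutants overlapped with that of wild type. The muscle myosin gene myo-2 was at 83.1 ± 3.18 FPKM in alg-2(ok304) and 58.7 ± 15.1 in wild type (0.52, adjusted p = 0.0787), and without wild type replicate 3 it was called (0.72, adjusted p = 0.0128). The organ selector gene pha-4 was not called (0.15 and 0.33, adjusted p = 0.741 and 0.436).

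Of 7 genes of the pharyngeal glands, 1 rose in alg-1(gk214) and 6 were not called, where 6.39% of all genes were called higher. In alg-2(ok304) 2 rose and 5 were not called, beside 4.87% of all genes called higher. With so short a list nothing is read from these counts. Summed FPKM of the 7 gland genes was 143 to 219 in alg-1(gk214), 212 to 312 in alg-2(ok304), 104 to 154 in alg-5(tm1163), 104 to 139 in alg-5(ram2) and 85.2 to 167 in wild type. The alg-2(ok304) range was thus above that of wild type, and the alg-1(gk214) range overlapped with it. The secreted-protein gene phat-2 rose by 1.15 in alg-1(gk214) (adjusted p = 0.0335) and 1.59 in alg-2(ok304) (adjusted p = 0.00648), and phat-4 by 1.10 in alg-2(ok304) (adjusted p = 0.0141). The lowest log2 difference of the list in alg-2(ok304), named after the values were seen, was that of phat-3, which had 9.61 ± 2.82 FPKM in alg-2(ok304), against 14.3 ± 3.54 in wild type (-0.53, adjusted p = 0.46). The alg-1(gk214) call for phat-2 was lost without alg-1(gk214) replicate 1 or 2 or wild type replicate 2 or 3 (adjusted p = 0.107, 0.0942, 0.136 and 0.0737). That for phat-4 was lost without wild type replicate 2 or alg-2(ok304) replicate 1 or 3 (adjusted p = 0.0671, 0.062 and 0.0534). The part of gland cells in the level of the 8 genes was not tested.

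**Figure D5:**
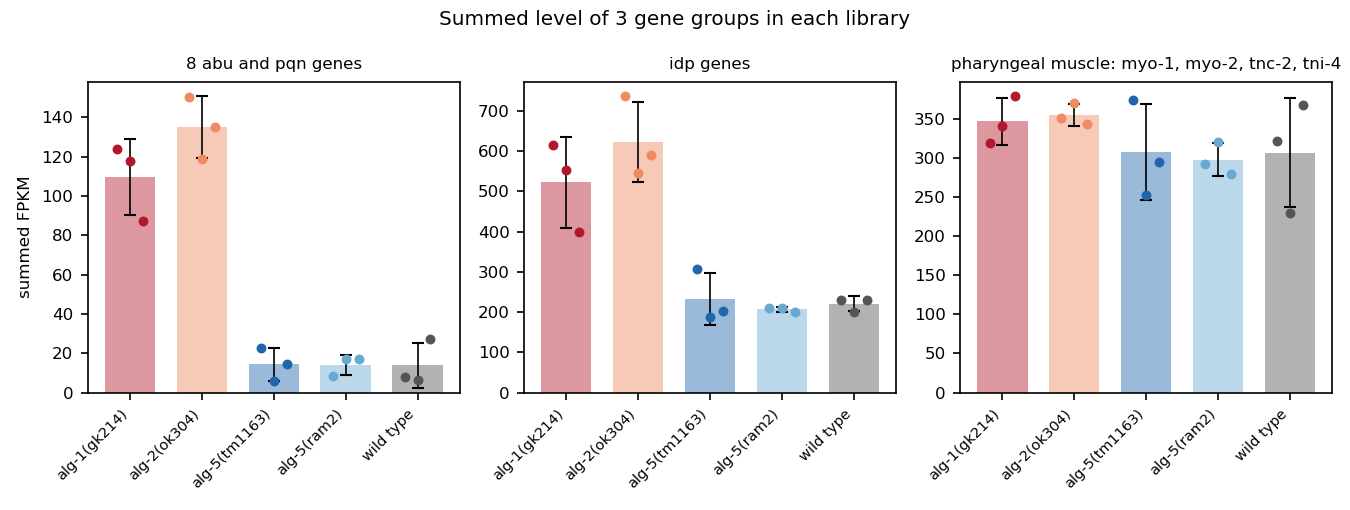
Summed FPKM per library of the 8 genes, of 31 idp genes and of 4 defining genes of pharyngeal muscle, by genotype; bars are means, whiskers SD of 3 and points libraries. The 8 genes average 109.7 in alg-1(gk214) and 135 in alg-2(ok304), against 13.9 in wild type, and the muscle genes 347 and 355, against 307.

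Regulators of the molting cycle, with which transcripts of the 8 genes are known to move, changed in both directions. Of 11 genes, 4 rose and 2 fell in alg-1(gk214), where 6.39% of all genes were called higher and 8.41% lower. In alg-2(ok304) 4 rose and 1 fell, beside 4.87% and 7.08%. The median changes were -0.13 in alg-1(gk214) and -0.11 in alg-2(ok304). The nuclear receptor gene nhr-25 was at 16.4 ± 1.96 FPKM in alg-1(gk214) and 17.3 ± 3.67 in alg-2(ok304), against 4.13 ± 1.3 in wild type (1.78 and 1.85, adjusted p = 0.00039 and 0.000335). The epidermal factor gene grh-1 was at 18.2 ± 2.17 FPKM in alg-1(gk214) and 22.1 ± 6.16 in alg-2(ok304), against 45.3 ± 8.75 in wild type (-1.26 and -1.03, adjusted p = 0.00117 and 0.0054). These regulators thus moved in opposite directions in the mutants in which the 8 genes were high. The molting receptor gene nhr-23 was not called (-0.03 and -0.35, adjusted p = 0.93 and 0.177). Smaller changes were called for nhr-85 in both mutants (0.79 and 0.96), lin-42 in alg-1(gk214) (-0.87) and kin-20 in alg-2(ok304) (0.69). The other rises, named after their values were seen, were those of kin-20 in alg-1(gk214) (0.50, adjusted p = 0.0396) and myrf-2 in both mutants (0.71 and 0.55, adjusted p = 0.00407 and 0.0204). The alg-1(gk214) call of nhr-85 was lost without alg-1(gk214) replicate 2 or 3 or wild type replicate 2 (adjusted p = 0.0502, 0.0785 and 0.0816), and that of lin-42 without alg-1(gk214) replicate 1 or wild type replicate 2 (adjusted p = 0.0595 and 0.0539). The part of molting stage in the level of the 8 genes was not tested.

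Of the markers of the body surface, 2 fell in the same mutants. The hypodermal collagen gene dpy-7 fell by 1.30 in alg-1(gk214) and 1.40 in alg-2(ok304), and the hedgehog-related gene wrt-2 by 1.64 and 1.68 (limma adjusted p between 1.18e-05 and 7.22e-05). Of 4 hypodermal genes in all, 1 rose (elt-3) and 2 fell in alg-1(gk214), and 2 fell in alg-2(ok304). Over all genes, 6.39% were called higher and 8.41% lower in alg-1(gk214), and 4.87% and 7.08% in alg-2(ok304). The elt-3 rise of 0.79 (adjusted p = 0.0348) was lost without any of 4 libraries, alg-1(gk214) replicate 2 or 3 or wild type replicate 1 or 2 (adjusted p = 0.145, 0.0664, 0.112 and 0.0931). Of 8 intestinal genes, 5 fell in alg-1(gk214), beside 8.41% of all genes, and 1 in alg-2(ok304), beside 7.08%. Among them was cpr-6 in both (-1.08 and -0.77). The next largest falls in alg-1(gk214) were those of ges-1 (-0.75), asp-1 (-0.52) and act-5 (-0.50), with limma adjusted p of 0.00492, 0.0195 and 0.0394. The asp-1 call was lost in 5 of 14 alternatives, the act-5 call in 7 and the ges-1 call in 1. Of 6 body wall muscle genes, only unc-54 was called, in alg-2(ok304) (0.58), where 4.87% of all genes were called higher.

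The abu name refers to activation when the unfolded protein response is blocked, so genes of that response were examined too. Of 21 tested, none rose and 8 fell in alg-1(gk214), where 6.39% of all genes were called higher and 8.41% lower. In alg-2(ok304) none rose and 6 fell, beside 4.87% and 7.08%. The chaperone gene hsp-4, the usual marker of the response, was at 214 ± 7.73 FPKM in alg-1(gk214) and 225 ± 15.1 in alg-2(ok304), against 251 ± 15.1 in wild type (-0.23 and -0.15, adjusted p = 0.153 and 0.382). Its means were below wild type in both mutants without passing the test. The transcription factor gene xbp-1 fell by 0.62 in alg-1(gk214) (adjusted p = 0.00404), by 0.42 in alg-2(ok304) (adjusted p = 0.0415) and by 0.78 in alg-5(ram2) (adjusted p = 0.0139). Its alg-2(ok304) call was lost without alg-2(ok304) replicate 1, 2 or 3 or wild type replicate 1 or 2 (adjusted p up to 0.139), and its alg-5(ram2) call without alg-5(ram2) replicate 1 or 3 or wild type replicate 1 or 2. The folding-enzyme genes dnj-27 (-1.02 and -0.85) and pdi-2 (-0.70 and -0.63) fell in both mutants with raised abu levels. Smaller falls were called for atf-4 in alg-1(gk214) (-0.53, adjusted p = 0.0417) and pdi-1 in alg-2(ok304) (-0.34, adjusted p = 0.0478). The atf-4 call was lost in 7 of 14 alternatives and the pdi-1 call in 9 of 14. The pdi-2 call in alg-1(gk214) was lost without replicate 1 of that mutant (adjusted p = 0.0532), and that in alg-2(ok304) without its replicate 1 or wild type replicate 2 (adjusted p = 0.106 and 0.0792). The part of the unfolded protein response in the level of the 8 genes was not tested.

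Small RNAs were listed for only 1 of the 8 genes. The gene abu-11 is in the authors' table of siRNAs of the Mutator pathway, which amplifies silencing siRNAs, and none of the 8 is in their CSR-1 table. In adults at 68 h, abu-11 siRNAs were at 16.6 RPM (reads scaled to the library total) in alg-1(gk214), 20.9 in alg-2(ok304) and 11.8 in alg-5(tm1163), against 26.8, 27.1 and 28.1 in 3 wild type libraries. In L4 larvae they were at 10.7 RPM in alg-5(ram2), against 23.6 in wild type. By the experiment numbers in the deposited table, alg-1(gk214) and alg-2(ok304) go with the wild type library at 27.1 and alg-5(tm1163) with that at 28.1. All 4 mutant libraries were below every wild type library, but each is a single library, so no test was made. The 5 input libraries of tagged strains ran from 17.6 to 26.4 RPM and overlapped with the mutants; by their labels the HA-tagged strains carry the alg-1(gk214), alg-2(ok304) or alg-5(tm1163) allele beside the tagged transgene, and GFP::ALG-5 is tagged in the alg-5 gene itself.

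The reads behind these abu-11 values, recovered from the step of the piRNA table, were about 51 in alg-1(gk214), 41.5 in alg-2(ok304), 102 in alg-5(tm1163) and 44 to 308 in adult wild type, and 236 in alg-5(ram2) and 513 in wild type L4 larvae. Part of a read can arise where reads are shared between genes. In immunoprecipitates of tagged Argonautes abu-11 siRNAs were below the matching input for each of 5 constructs. They were at 14.8 RPM in the HA::ALG-1 precipitate, against 20.3 in its input, at 10.6 against 26.4 for HA::ALG-2, and at 12.1 against 20.9 for ALG-1::HA::ALG-2. For HA::ALG-5 they were at 10.1 RPM in the precipitate, against 17.6 in the input, and for GFP::ALG-5 from L4 larvae at 0.239, which is 1 read, against 18.5. These ratios have no replicate.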

How the data were processed

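Long RNA of whole L4 larvae (15 libraries) was freed of ribosomal RNA with RiboZero and made into strand-specific dUTP libraries, per the labels' protocols. The authors deposited FPKM per gene and library, estimated with Cuffdiff per the file headers. Trimmomatic 0.35, TopHat2, HTSeq and DESeq2 are also named in the submitters' processing notes, with no order, and the genome build and annotation are not given in the sources used here. For siRNAs the authors deposited RPM per gene, and total reads of 1622092 to 24518714 were derived from the smallest step of the piRNA RPM values, of which 99.1% to 99.6% were whole reads within 0.02.

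The 8 genes and all gene lists were chosen with earlier results of these data known. Groups were taken from the labels. The 15174 genes that averaged 1 FPKM or more in some genotype were fitted as log2(FPKM + 1) in limma 3.58.1 (R 4.3.3) with a mean-variance trend, all 5 genotypes in 1 model, and Benjamini-Hochberg adjustment at 0.05. The model had 10 residual degrees of freedom. FPKM are not counts, so no count test was run. The fit was also run on simulated data with normal noise. Changes were put only into genes of higher mean level there, so changes of genes near 0 were not covered.

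Named were the 8 genes, up to 4 called genes per list and mutant with the largest change, nhr-23, nhr-25, pha-4, myo-2, chs-2, hsp-4, xbp-1, alg-1, alg-2 and alg-5, the 6 genes of most similar pattern, and the nearest tabled neighbours; 20063 of 20517 genes matched a RefSeq locus tag of WBcel235. Alternatives were pseudocounts of 0.1 and 5, no filter or a mean of 5 FPKM, equal FPKM sums, quantile normalization, only the compared groups, the replicate number as a block, and each library left out. No sequence of the genes was used here.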

Additional observations from a re-analysis of the deposited data

How the results depend on the processing

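The median change of the 8 genes kept its sign in alg-1(gk214) and alg-2(ok304) under all alternatives run, and its size moved with the pseudocount. With 0.1 it was 3.80 in alg-1(gk214), 4.10 in alg-2(ok304) and 0.52 in alg-5(ram2), and with 5 it was 1.34 in alg-1(gk214) and 1.62 in alg-2(ok304), since a larger pseudocount shrinks changes of low genes. With 1 library left out in turn it ran from 2.05 to 2.61 in alg-1(gk214), 2.58 to 3.01 in alg-2(ok304), -0.21 to 0.52 in alg-5(tm1163) and -0.06 to 0.44 in alg-5(ram2). Of the other abu and pqn genes, 9 to 12 were called in alg-1(gk214) and 11 to 13 in alg-2(ok304) with a library left out, and none in either alg-5 mutant. Of the 33 other pharyngeal cuticle genes (the idp genes, chs-2 and nas-6), 12 to 19 were called in alg-1(gk214) and 14 to 21 in alg-2(ok304). A fit of only the compared groups, which has fewer samples, called 4 other abu and pqn genes in alg-1(gk214), where 13 were called with all 15 libraries, 8 in alg-2(ok304), again against 13, and 10 other pharyngeal cuticle genes in alg-1(gk214), against 17. In that fit 20 of 50 calls of named genes were lost, among them that of alg-5 in alg-5(ram2) (adjusted p = 0.0925), pqn-74 in alg-1(gk214) (0.0769) and pqn-31 in alg-1(gk214) (0.0788). With no filter on low values 8 of 50 were lost, among them phat-2 (adjusted p = 0.0745) and elt-3 (0.0658) in alg-1(gk214) and pdi-2 (0.0517) and xbp-1 (0.0635) in alg-2(ok304). Quantile normalization lost 4, xbp-1 in alg-2(ok304) (0.0639) among them, and equal FPKM sums 1.

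Replicate numbers are shared by the groups, and nothing in the labels says that they pair the libraries. Deviations of same-numbered libraries from their group means correlated between -0.0255 and 0.0904 (30 pairs, median 0.0272, against -0.0189 over 60 pairs of different number). None was over 0.1, the level set for pairing, although 9 of 15 libraries correlated best with their own number, a hint from the data and not from the design. With the replicate number as a block the median change of the 8 genes was 2.29 in alg-1(gk214) and 2.74 in alg-2(ok304), the calls were 13 in both for the other abu and pqn genes, and 0 of 50 calls of named genes were lost. Depth, paralog reads and the low wild type levels limit single-gene values.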
